A study of Mus musculus with 8 samples.

Results

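The regions described here are autosomal stretches of accessible chromatin that were detected in exactly 3 of 8 ATAC-seq libraries from mouse amygdala neurons. ATAC-seq cuts open DNA with a transposase, and a peak caller then lists the intervals that hold more fragments than the background. Each library's list was cut to its strongest 53864 intervals, which is the length of the shortest list, intervals of different libraries that shared at least 1 bp were merged, and the merged regions of chromosomes 1 to 19 that held intervals of 3 libraries were kept. The members were thus chosen by the deposited −log10 p values, which rank the intervals of each list, and by the overlap of intervals. This gave 1255 members among 404843 merged regions (0.310%). The number of detecting libraries was itself the choice, so the counts by number of libraries describe the members and are not tested. Which libraries detected a member, where it lay and how strong it was in the lists below the cut were not used to choose it.

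All 8 libraries came from male C57BL/6J mice whose amygdala received an AAV carrying a guide RNA. In 4 mice the guide targeted the Rosa26 locus (sgRosa, the control) and in 4 it targeted Nr2f2 (sgNr2f2). The guides were expressed for over 2 weeks, and mice of both groups then went through tube restraint on 7 days, then fear conditioning on 1 day and extinction on 3 days, so no unstressed animal stands beside them. The tissue was dissociated with papain and the neurons were enriched with a magnetic bead kit. Age, and the promoter and the nuclease that went with the guide, are not given in the sources used here, and each library is taken as 1 mouse.

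Nr2f2, also called COUP-TFII, is an orphan nuclear receptor that binds DNA as a dimer at AGGTCA-type half-sites and mostly represses transcription. It shapes interneuron and amygdala development and stays on in some adult amygdala neurons. Accessible chromatin in neurons differs by place. Promoters of widely expressed genes are open in most cells, while distal elements, often inside introns or far from genes, are open in some cell types only and give weaker peaks in bulk tissue.

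Members were more frequent at gene promoters than moved intervals were, and 5 promoter windows under members are printed to show what such DNA looks like. Each sequence is the 250 bases before the RefSeq transcript start in build GRCm38.p6, the assembly of the mm10 coordinates used by the lists, read 5′ to 3′ on the gene's strand. Capitals mark the bases inside the member and lower case the bases outside it. Stt3a, Ywhaq and Tmem123 lay under members of sgRosa libraries only and were named by the rule for members at gene ends. Fh1 (2 sgRosa and 1 sgNr2f2 libraries) and Anapc4 (1 sgRosa and 2 sgNr2f2 libraries) lay under mixed members and were chosen after their values were seen.
Stt3a: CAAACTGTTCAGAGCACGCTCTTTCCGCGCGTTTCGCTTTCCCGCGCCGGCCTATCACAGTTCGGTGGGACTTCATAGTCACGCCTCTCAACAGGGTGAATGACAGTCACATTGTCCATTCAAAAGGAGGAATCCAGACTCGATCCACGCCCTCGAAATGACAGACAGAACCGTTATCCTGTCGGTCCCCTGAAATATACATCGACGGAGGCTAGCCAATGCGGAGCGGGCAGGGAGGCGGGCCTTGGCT
Ywhaq: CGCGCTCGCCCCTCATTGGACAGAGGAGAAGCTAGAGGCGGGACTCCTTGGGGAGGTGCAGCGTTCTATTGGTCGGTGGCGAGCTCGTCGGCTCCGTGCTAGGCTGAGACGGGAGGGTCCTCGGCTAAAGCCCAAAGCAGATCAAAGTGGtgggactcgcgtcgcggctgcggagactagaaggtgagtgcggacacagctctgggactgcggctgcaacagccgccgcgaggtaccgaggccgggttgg
Tmem123: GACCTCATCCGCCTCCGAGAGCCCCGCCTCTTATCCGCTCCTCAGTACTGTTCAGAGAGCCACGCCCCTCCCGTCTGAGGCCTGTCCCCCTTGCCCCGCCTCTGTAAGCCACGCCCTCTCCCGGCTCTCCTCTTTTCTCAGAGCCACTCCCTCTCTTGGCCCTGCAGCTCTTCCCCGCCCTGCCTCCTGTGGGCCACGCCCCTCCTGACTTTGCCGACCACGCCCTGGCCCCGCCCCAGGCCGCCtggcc
Fh1: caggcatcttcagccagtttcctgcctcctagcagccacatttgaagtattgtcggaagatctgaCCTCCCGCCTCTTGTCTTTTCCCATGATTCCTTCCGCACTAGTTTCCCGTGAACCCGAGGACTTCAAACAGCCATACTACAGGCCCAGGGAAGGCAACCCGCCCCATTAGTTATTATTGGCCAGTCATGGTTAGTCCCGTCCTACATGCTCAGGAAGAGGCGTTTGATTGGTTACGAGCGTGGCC
Anapc4: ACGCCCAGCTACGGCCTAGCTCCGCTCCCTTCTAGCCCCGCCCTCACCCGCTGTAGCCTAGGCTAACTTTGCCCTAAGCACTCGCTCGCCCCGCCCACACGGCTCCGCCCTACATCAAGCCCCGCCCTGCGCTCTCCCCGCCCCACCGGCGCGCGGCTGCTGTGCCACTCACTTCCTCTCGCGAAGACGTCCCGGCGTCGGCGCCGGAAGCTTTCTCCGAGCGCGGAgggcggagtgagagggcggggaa

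Stt3a encodes a catalytic subunit of the oligosaccharyltransferase, which adds sugars to proteins in the endoplasmic reticulum. Its promoter window at chr9:36767623-36767872 (minus strand) lay wholly inside a member. Ywhaq encodes a 14-3-3 adaptor protein, and 150 of the 250 bases at chr12:21417437-21417686 (minus strand) lay inside a member. Tmem123 encodes a transmembrane protein, and 245 bases at chr9:7763827-7764076 (plus strand) lay inside a member. Fh1 encodes fumarate hydratase of the citric acid cycle, with 185 bases inside a member at chr1:175625636-175625885 (minus strand). Anapc4 encodes a subunit of the anaphase-promoting complex, with 227 bases inside a member at chr5:52833885-52834134 (plus strand). The G+C content of these 5 windows ran from 52.8% at Fh1 to 70.8% at Anapc4.

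Members were far fewer than regions of 1 library and more numerous than regions of any higher number. The merge gave 384067 regions of 1 library, 18876 of 2, then the 1255 members, 193 of 4, 81 of 5, 83 of 6, 65 of 7 and 223 of all 8. The same lists were moved sideways along each chromosome, every library by its own distance of 20 to 200 kb, and merged anew, 20 times. The moved lists gave a mean of 368 regions in exactly 3 libraries (range 332 to 402), so the members were 3.41 times as many. This ratio was 1.54 for regions of 2 libraries, where the moved lists gave 12284, and 14.0 for regions of 4, where they gave 13.8. Lists moved apart thus gave some regions of 3 libraries too, and single members cannot be sorted by this count.

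**Figure D1:**
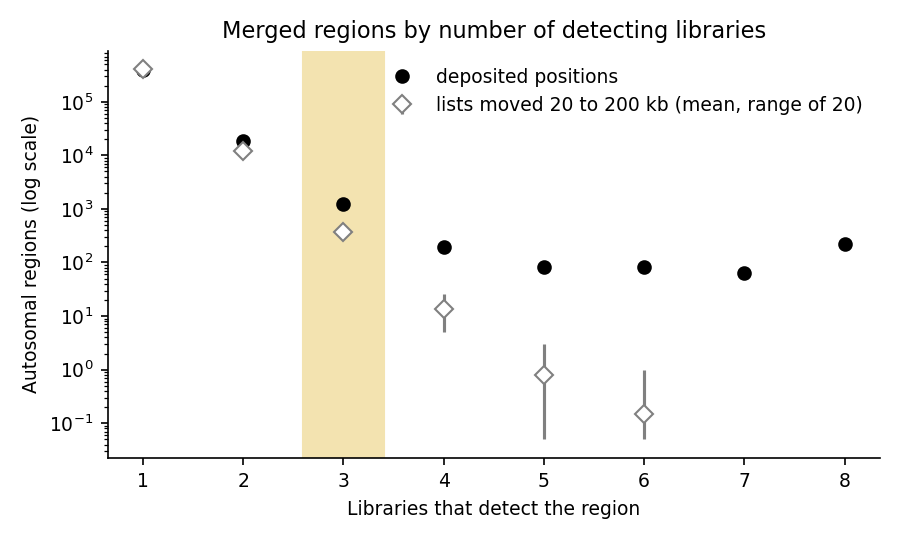
Number of merged autosomal regions (log axis) by the number of libraries that detected them, for the deposited positions (filled circles) and for lists moved by 20 to 200 kb (open diamonds, mean and range of 20 moves, with ranges that reach 0 drawn to 0.05 and no symbol where all moves gave 0). The shaded column holds the 1255 members, against a mean of 368 in the moved lists.

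The strength of a detection is given by the peak caller's deposited −log10 p at the summit. Members had a median −log10 p of 3.98 over their 3765 detecting intervals, against 3.88 for regions of 1 library, 3.89 for regions of 2, 5.55 for regions of 4 to 7 and 23.7 for regions of 8. Intervals with a deposited q under 0.05 made up 21.8% of the members' intervals, 14.2% and 15.7% in regions of 1 and 2 libraries, and 59.2% in regions of 4 to 7. The weakest of a member's 3 detections had a median of 3.46 and ran from 2.03 to 9.33. In 38 members all 3 detections had q under 0.05, in 142 members 2 did, in 422 members 1 did and in 653 none did. At the end of the cut lists the value was 2.86, 2.77, 2.68 and 3.70 in sgRosa 1 to 4 and 3.48, 3.16, 2.84 and 2.00 in sgNr2f2 1 to 4, and the first interval left out had the same printed value where one existed. Up to 18530 intervals (in sgNr2f2 2) shared the value at which a list ended and were ordered at random. Of the members, 152 (12.1%) had an interval with such a tied value.

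Summits within a member lay closer together than in the moved lists. The outermost summits of a member were a median of 165 bp apart, against 202 bp (range of medians 186 to 214) in the moved and merged lists. They lay within 100 bp of each other in 25.3% of members and in 12.9% of moved ones, and all intervals shared common bases in 63.9% of members against 47.4%. Members had a median width of 368 bp. In 30 members a library contributed more than 1 interval.

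Members were detected about as often in control as in sgNr2f2 libraries. The sgRosa libraries 1 to 4 detected 557, 475, 485 and 377 members, and the sgNr2f2 libraries detected 495, 421, 482 and 473. The highest and the lowest count both belonged to control libraries, and the sgNr2f2 counts lay between them. Control libraries had a mean of 473.5 ± 74.0 (SD, n = 4) and sgNr2f2 libraries one of 467.75 ± 32.4 (SD, n = 4), a difference of -5.75 members per library that was smaller than the spread within either group (two-sided exact permutation p = 0.886 over 70 assignments, adjusted p = 0.886 over 2 tests). With members rebuilt from 7 libraries, the difference without sgRosa 4 became -42.2 (exact permutation p = 0.0286, unadjusted), and without sgRosa 1 it became 17.9.

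Most members mixed the groups. There were 523 members of 2 sgNr2f2 and 1 sgRosa libraries (41.7%) and 567 of 1 sgNr2f2 and 2 sgRosa libraries (45.2%). Members of 3 sgNr2f2 and no sgRosa libraries numbered 86 (6.85%), and members of 3 sgRosa and no sgNr2f2 libraries numbered 79 (6.29%). Over all merged regions the share found in 3 or more libraries of 1 group and none of the other was 0.0222% for sgNr2f2 and 0.0205% for sgRosa, and among regions of at least 3 libraries it was 4.74% and 4.37%. These background shares depend on the number of libraries used to choose the members, and nothing is read from them. The members of 1 group only came to 165, or 13.1% (95% Wilson interval 11.4 to 15.1%, counting error only). Of the 56 possible triples of libraries 8, or 14.3%, lie within 1 group, and the moved lists gave 11.4 to 18.5%. The share of members of 1 group thus lay within the range of moved lists, and 3 of 4 libraries against 0 of 4 cannot reach an exact p of 0.05 at any single region.

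Each of the 56 triples held members, from 10 to 46 with a median of 22. The fullest was sgRosa 1 with sgRosa 3 and sgNr2f2 1 (46 members), followed by sgRosa 1 with sgRosa 2 and sgNr2f2 4 (45). The emptiest was sgRosa 2 with sgRosa 4 and sgNr2f2 3 (10). Of the members of 1 group only, 78 of the 86 for sgNr2f2 and 72 of the 79 for sgRosa also lacked any interval of the other group in the full lists. Over the 1255 members, 123 (9.80%) overlapped intervals of 4 or more libraries once the full lists were used.

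**Figure D2:**
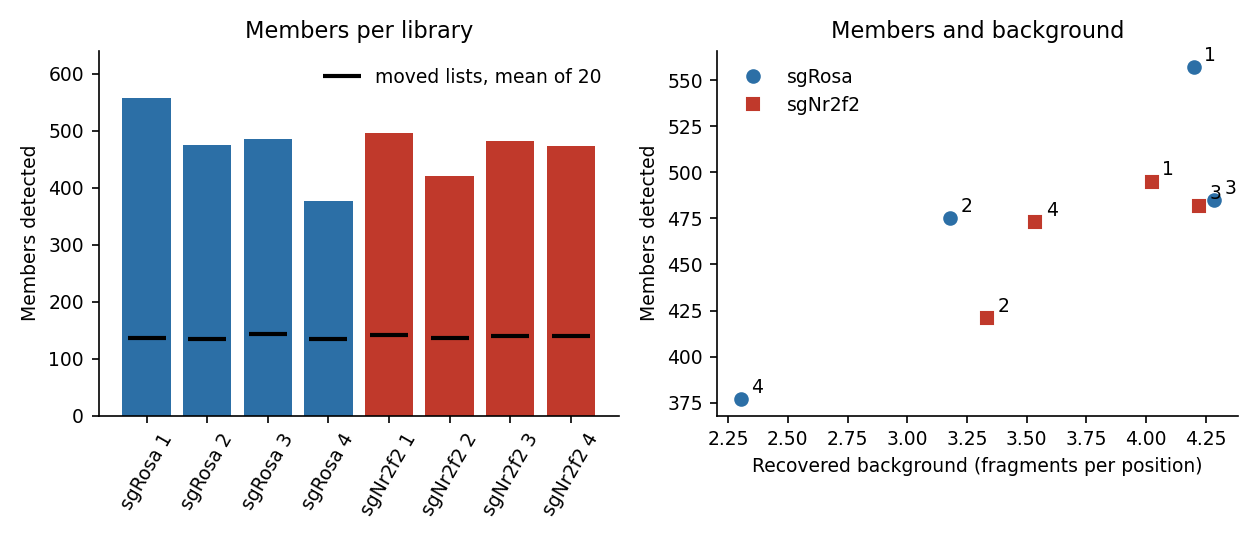
Left, the number of members detected in each library (bars) with the mean over 20 moves of the lists (black lines); right, the same numbers against the background recovered from each list, with replicate numbers beside the points. Control library sgRosa 4 has the fewest members (377) and the lowest background (2.304), and sgRosa 1 has the most members (557).

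The number of members in a library rose with the background of that library. The background, recovered from the deposited fold and −log10 p of each summit as the most common local expectation, was 4.20, 3.18, 4.284 and 2.304 fragments per position in sgRosa 1 to 4 and 4.023, 3.336, 4.223 and 3.536 in sgNr2f2 1 to 4. Pearson's r over the 8 libraries was 0.8289 (exact permutation p = 0.00806, adjusted p = 0.0161 over 2 relations) and Spearman's rho was 0.738 (exact permutation p = 0.0458, adjusted p = 0.0917). Without the 2 libraries farthest from the median background, sgRosa 2 and sgRosa 4, r was 0.712, and without sgRosa 4 alone it was 0.620 (exact permutation p = 0.124), so the relation rested on that library. With the full lists in place of the cut ones r was -0.358. Against the length of the full list, which ran from 53864 to 143405 intervals and was longest in sgRosa 4, r was -0.713 (exact permutation p = 0.0537, adjusted p = 0.0537) and rho was -0.143 (exact permutation p = 0.752, adjusted p = 0.752). Leaving out the 2 longest lists, sgRosa 4 and sgNr2f2 1, gave an r of -0.590.

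Below the cut, the lists that had not detected a member held weaker intervals at it more often than the mean over moved places, in each of the 7 libraries with such intervals. In sgRosa 1 and sgRosa 3 the share lay within the range of the 20 moves (0 to 0.860% and 0 to 0.649%), with 3 and 2 members covered. Weaker intervals covered 0.430% of the undetected members in sgRosa 1, 1.15% in sgRosa 2, 0.260% in sgRosa 3 and 5.24% in sgRosa 4. The same members moved by 20 to 200 kb gave means of 0.258%, 0.256%, 0.149% and 2.22%. The values were 5.0% in sgNr2f2 1, 3.84% in sgNr2f2 2 and 1.42% in sgNr2f2 3, against 1.26%, 1.04% and 0.188% at moved places. No interval lay below the cut in sgNr2f2 4, whose list set the length. The 3 highest shares belonged to the 3 longest lists, so shares are compared with moved places of the same library and not between libraries.

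Members were more frequent at gene starts than the same intervals moved along the chromosome, all members by a common distance. RefSeq promoter windows, which span 250 bases before and 50 after a transcript start, overlapped 76 members (6.06%) against a mean of 0.904% after moving (range 0.398 to 1.43%), a ratio of 6.70. A protein-coding start site lay within 1 kb of 101 members (8.05%, 95% Wilson interval 6.67 to 9.68%) against 1.72% (range 1.20 to 2.31%). Either outer end of a protein-coding gene lay within 1 kb of 126 members (10.04%) against 4.26% (range 3.43 to 4.94%). The last base of a gene without a start site nearby accounted for 12 members (0.956%), below the moved range of 1.20 to 2.71%.

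The share at start sites was 1.98% for regions of 1 library, 3.00% for regions of 2, 8.05% for the members, 5.92% for regions of 4 to 7 and 3.14% for regions of 8. The share at start sites was thus highest among members, with no test of the order. Within 1 kb of either gene end lay 3.93% of regions of 1 library, 5.09% of regions of 2 and 10.04% of members. Regions of 4 to 7 libraries gave 10.2% there, and regions of 8 gave 5.38%. For wider classes of place the members lay just outside or within the moved ranges. Protein-coding genes held 539 members (42.9%) against 41.0% after moving (range 39.0 to 42.4%). Over 5 kb from any gene lay 465 members (37.1%) against 39.1% (range 37.3 to 41.0%). Genes of at least 300 kb held 121 members (9.64%) against 10.2%. Every move was shorter than these genes, so a moved member could stay in the same gene, and this match is not informative. Such genes held 13.2% of regions of 1 library, 12.4% of regions of 2, 5.92% of regions of 4 to 7 and 4.93% of regions of 8. The gene table gives spans and transcript starts, so exons and introns were not told apart. Within 10 kb of a region of 4 or more libraries lay 122 members (9.72%) against 2.75% (range 1.59 to 6.93%). The first assembled megabase of the chromosomes held 31 members (2.47%) against 2.42% after moving. Every move was shorter than a megabase, so moved members could stay in it, and this match is not informative either. The first megabase held 0.670% of regions of 1 library, 0.932% of regions of 2, 13.3% of regions of 4 to 7 and 26.5% of regions of 8. The order of these shares was not tested.

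**Figure D3:**
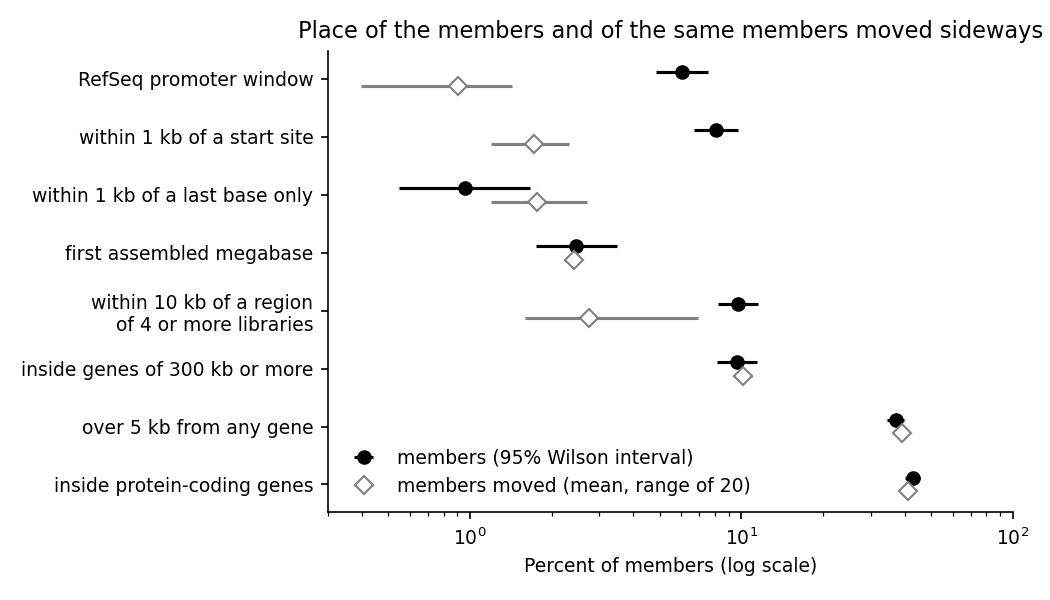
Percent of the members (log axis) in each kind of place, as deposited (filled circles with 95% Wilson intervals) and after moving all members by 20 to 200 kb (open diamonds, mean and range of 20 moves). Promoter windows hold 6.06% of the members against 0.904% after moving, while the share inside protein-coding genes (42.9% against 41.0%) is close.

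Among the strongest members the place differed. Of the 38 members with q under 0.05 in all 3 libraries, 18 (47.4%) lay within 10 kb of a region of 4 or more libraries and 9 (23.7%) in the first assembled megabase of a chromosome, while 2 (5.26%) were at start sites. Of the 653 members with no such detection, 29 (4.44%) lay within 10 kb of such a region, 6 (0.919%) in the first megabase and 45 (6.89%) at start sites. Members within 1 kb of a gene end had a median lowest −log10 p of 3.49, and members elsewhere 3.46. In the full lists 20.6% of the members at gene ends and 8.59% of the others were found in 4 or more libraries.

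The members that control libraries detected lay at gene ends more often than those of sgNr2f2 libraries. Within 1 kb of a gene end lay 11.8%, 13.7%, 10.9% and 9.55% of the members of sgRosa 1 to 4, and 9.29%, 6.89%, 8.30% and 9.09% of the members of sgNr2f2 1 to 4. All control libraries were above all sgNr2f2 libraries, by a narrow margin between sgRosa 4 and sgNr2f2 1. In numbers, these were 66, 65, 53 and 36 members in sgRosa 1 to 4 and 46, 29, 40 and 43 in sgNr2f2 1 to 4. The sgRosa 4 share thus rested on its low total of 377 members. The mean share was 11.5 ± 1.73% (SD, n = 4) in control and 8.39 ± 1.09% (SD, n = 4) in sgNr2f2 libraries. The difference of -3.11 percentage points reached the smallest p that 70 assignments can give (0.0286, exact permutation, both sides), and its adjusted p over 2 tests was 0.0571, which misses 0.05. Leaving out 1 library at a time gave differences from -4.10 to -1.75, and the p exceeded 0.05 without sgRosa 2 (difference -1.75, exact permutation p = 0.114) and without each sgNr2f2 library in turn, the highest being 0.229 without sgNr2f2 3 (difference -2.47). With the full lists the difference was -1.69 (exact permutation p = 0.114). The libraries share members, so a member at a gene end enters 3 of the 8 shares.

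Start sites alone showed the same order, with 10.2%, 11.8%, 7.84% and 8.22% in sgRosa 1 to 4 and 6.87%, 5.70%, 6.02% and 7.19% in sgNr2f2 1 to 4, and means of 9.52 ± 1.84% and 6.44 ± 0.70% (SD, n = 4 each). By group make-up, start sites lay near 3 of the 86 members of sgNr2f2 only (3.49%), 29 of 523 with 2 sgNr2f2 libraries (5.54%), 54 of 567 with 1 (9.52%) and 15 of 79 with none (18.99%). The share thus went up with each control library in the triple, and the 101 members at start sites held 182 control and 121 sgNr2f2 detections. By library these were 57, 56, 38 and 31 in sgRosa 1 to 4 and 34, 24, 29 and 34 in sgNr2f2 1 to 4. Most of the control detections thus came from sgRosa 1 and 2, and sgRosa 4 had fewer than sgNr2f2 1 and 4. Members are not replicates of a group, and the order by make-up was not tested. Regions of 1 library showed no such gap at gene ends, with 3.805 ± 0.25% in sgRosa and 4.05 ± 0.52% in sgNr2f2 libraries, and regions of 2 gave 5.29 ± 0.86% and 4.81 ± 0.62%. Regions of 4 to 7 libraries gave 10.5 ± 1.19% (lowest 8.90%) and 8.02 ± 0.29% (highest 8.42%), so these groups did not overlap either. In bulk samples, fewer nuclei with an open promoter and less opening per nucleus cannot be told apart. The recovered background overlapped between groups (2.304 to 4.284 in sgRosa, 3.336 to 4.223 in sgNr2f2), and its part in the share at gene ends was not tested.

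**Figure D4:**
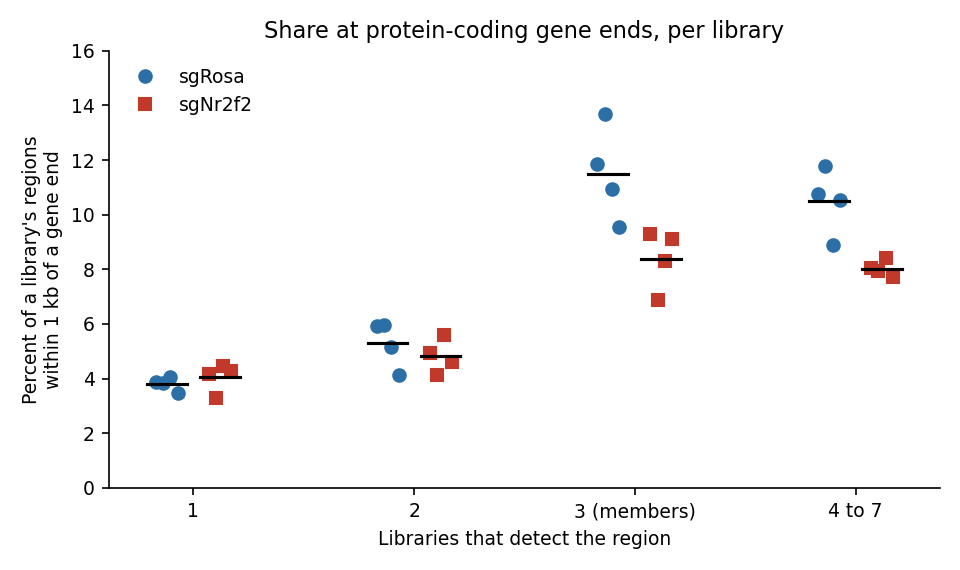
Percent of each library's regions that lie within 1 kb of a protein-coding gene end, for regions of 1, 2, 3 and 4 to 7 libraries, with group means as black lines. Among the members the control libraries sit between 9.55 and 13.7% and the sgNr2f2 libraries between 6.89 and 9.29%.

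Of the 79 members of control libraries only, 13 (16.5%) lay at gene ends, against 10.04% of all members. The sgNr2f2-only members gave 5 of 86 (5.81%), and these shares were not tested. The promoters of Stt3a, Ywhaq and Tmem123 were among the 13. At Stt3a the member at chr9:36767462-36768028 had −log10 p of 6.97, 3.91 and 5.25 in sgRosa 1, 2 and 4. At Ywhaq the member at chr12:21417537-21417807 had 9.82, 3.91 and 3.84 in the same libraries. At Tmem123 the member at chr9:7763561-7764071 had 3.37, 4.53 and 4.58 there. These 3 promoters were missed by the same control library, sgRosa 3, and none of them had an interval in any full sgNr2f2 list.

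Itpr2, an inositol trisphosphate receptor that releases calcium from stores, held a member at chr6:146501771-146502123 with 3.90, 3.91 and 5.25 in sgRosa 1, 2 and 4. Slc2a1, the glucose transporter GLUT1, held a member at chr4:119108534-119108967 with 3.73, 3.33 and 3.81 in sgRosa 1, 2 and 3. Mdh1, the cytosolic malate dehydrogenase, shares its gene end with Wdpcp, and the member there at chr11:21571773-21572184 had 4.44, 4.53 and 3.81 in the same libraries. Of the 13 control-only members at gene ends, the 10 with the highest weakest detection are named, and the last 4 of these lay at Khsrp and Slc25a41 (6.02, 3.81 and 5.25 in sgRosa 2, 3 and 4), at Ttll8 and Mlc1 (3.59, 4.53 and 3.29 in sgRosa 1, 2 and 3), at Camsap1 (5.05, 2.79 and 3.84 in sgRosa 1, 3 and 4) and at Zbtb5 (3.90, 3.91 and 2.79 in sgRosa 1, 2 and 3). Khsrp is an RNA-binding protein that promotes decay of some messages, and Camsap1 binds the minus ends of microtubules. In the full lists the Khsrp member was also found in 1 sgNr2f2 library and the Zbtb5 member in all 4 control libraries.

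Members of sgNr2f2 libraries only lay at 5 gene ends, and their highest −log10 p was 5.98. The member near Kcnj8, which encodes a pore subunit of ATP-sensitive potassium channels, at chr6:142563883-142564355, had 4.09, 5.64 and 4.08 in sgNr2f2 1, 3 and 4, and 1 control library held an interval there in the full lists. The member at Utp23, a ribosomal RNA processing gene, at chr15:51877269-51877767, had 4.01, 5.62 and 5.98 in sgNr2f2 1, 2 and 4. Herpud1 encodes a membrane protein of the endoplasmic reticulum that is induced by unfolded proteins, and its member at chr8:94386906-94387222 had 3.53, 3.73 and 4.41 in the same libraries. The member at Adam15, Dcst1 and Dcst2 had 3.73, 3.88 and 3.496 in sgNr2f2 2, 3 and 4. The member at Ntmt1, an N-terminal methyltransferase, had 4.67, 2.84 and 5.001 in sgNr2f2 1, 3 and 4, and the full lists held it in all 4 sgNr2f2 libraries.

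**Figure D5:**
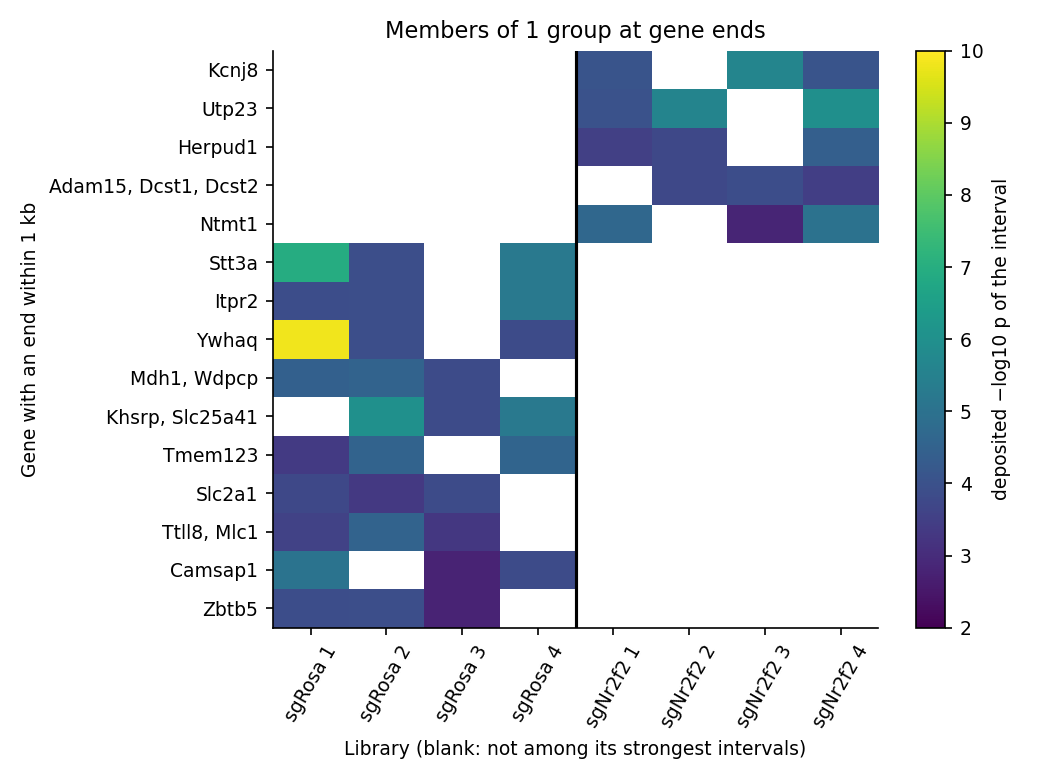
Deposited −log10 p of the interval (colour) in each library at members detected by libraries of 1 group only and lying within 1 kb of a gene end; a blank cell has no interval among the strongest 53864 of that library. The 5 upper rows are the members of sgNr2f2 libraries, the 10 lower rows those of sgRosa libraries with the highest values of their weakest detection, and the highest value is 9.82 at Ywhaq in sgRosa 1.

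Mixed promoters included Fh1 and Anapc4. The Fh1 member at chr1:175625497-175625820 had −log10 p of 12.2 and 5.87 in sgRosa 1 and 2 and 5.32 in sgNr2f2 4. The Anapc4 member at chr5:52833630-52834111 had 4.46 in sgRosa 1, 3.54 in sgNr2f2 1 and 5.02 in sgNr2f2 3. Promoter windows under members were richer in G and C than promoters at large. Over the 104 windows that overlapped the 76 members, from 96 genes, the median G+C content was 60.3%, against 53% over all 31396 windows of the table. The motif AGGTCA, a nuclear receptor binding element counted on both strands, was present in 10 of the 104 windows (9.62%) and in 16.3% of all windows. Of the 5 printed windows Fh1 alone holds it, as TGACCT on the printed strand across the edge of the member. These are letter matches in 300-base windows.

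Outside promoters, the strongest members of sgNr2f2 libraries only exceeded the strongest of control libraries only in their weakest detection. The strongest lay at chr19:39260634-39260821, 26223 bp from the cytochrome P450 gene Cyp2c29, with 9.41, 8.51 and 12.9 in sgNr2f2 1, 2 and 3. The next lay inside Abcg2, a drug efflux transporter, at chr6:58600263-58600462, with 7.95, 8.37 and 12.1 in sgNr2f2 1, 2 and 4. In the full lists too no control library held an interval at either. A member inside Sirpa, a signal receptor of neurons and myeloid cells, had 7.22, 6.30 and 5.85 in sgNr2f2 1, 2 and 3, and 1 control library held a weaker interval there. A member inside Slc4a10, a neuronal sodium bicarbonate transporter, had 5.28, 6.30 and 5.64 in the same libraries. Members 26335 bp from Prl2c3 (5.28, 6.27 and 5.98 in sgNr2f2 1, 3 and 4) and 8059 bp from EU599041 (4.69, 5.02 and 5.32 in sgNr2f2 1, 3 and 4) followed.

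For control libraries only, the strongest member lay at chr1:184400623-184400809, 324987 bp from Dusp10, with 5.67, 5.03 and 6.01 in sgRosa 1, 2 and 4. A member on chromosome 15, with Cdh6 as its nearest gene 1743392 bp away, had 4.53, 5.55 and 11.1 in sgRosa 2, 3 and 4. A member 31259 bp from Sema3d, which encodes a secreted axon guidance protein, had 9.08, 4.53 and 7.02 in sgRosa 1, 2 and 4. A member 94482 bp from Prl2c3 (4.89, 4.72 and 4.62 in sgRosa 1, 3 and 4) was found in 3 sgNr2f2 libraries in the full lists. Another lay 45825 bp from Tcp10c (4.54, 6.00 and 4.56 in sgRosa 1, 2 and 3). The last had Ctnna2 as its nearest gene 1382135 bp away (5.05, 5.55 and 4.53 in sgRosa 1, 3 and 4). The strongest mixed member, on chromosome 18, had 12.96 in sgRosa 1, 9.33 in sgRosa 4 and 11.3 in sgNr2f2 3, 221849 bp from Galr1. The next had 9.08 in sgRosa 1 and 15.4 and 10.4 in sgNr2f2 3 and 4, 102284 bp from Antxr2.

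The strongest member of each make-up was mostly far from gene ends, and 1 of the 18 described lay within 1 kb of one, at LOC100504180 (8.04 in sgRosa 3, 6.57 and 8.51 in sgNr2f2 1 and 2). Another mixed one lay at chr13:3374168-3374338, 163737 bp from Gdi2 (12.2 in sgRosa 3, 7.58 and 6.74 in sgNr2f2 2 and 4). A further one lay at chr9:3008914-3009080, 326151 bp from Alkbh8 (7.89 and 14.9 in sgRosa 1 and 4, 8.95 in sgNr2f2 3). The last lay inside Zfp984 (8.07 and 7.51 in sgRosa 2 and 3, 8.31 in sgNr2f2 3). Nearest genes are given for place only, and no link to them was tested. How certainly reads were placed at these strongest members is not known. The 1 Mb window of chromosome 13 near Prl2c3 also held 18 regions of 4 or more libraries.

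Zinc finger genes of chromosome 4 held the densest group of members. Genes of this kind encode DNA-binding repressors, many of which silence mobile elements, and they lie in clusters of near-identical copies. Around the 388 zinc finger genes (with 5 kb on each side, as for every gene list) lay 43 members, or 2.604 per Mb, against 0.565 per Mb around all 20661 protein-coding genes. Single-library regions put this at 16.2 members per 1000, against 3.29 for all genes. Of the 43, 5 were sgNr2f2 only, 13 had 2 sgNr2f2 libraries, 22 had 1 and 3 were sgRosa only. The intervals within 10 kb of a region of 4 or more libraries made up most of them, and 18 remained without these. Reads from such copies cannot be placed with certainty where copies are near identical, and how the authors treated them is not given in the sources used here.

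Zfp978 (10 members), Zfp993 (7 members in the gene and 8 with 5 kb around it) and Zfp981 (4 and 5) led the zinc finger genes, and Zfp993 and Zfp981 overlap. At Zfp978 the members ranged in their lowest −log10 p from 2.79 to 5.62. The strongest of them at chr4:147242169-147242492 had 8.31 in sgRosa 2 and 8.33 and 5.62 in sgNr2f2 1 and 2. The 10 members of Zfp978 held 15 sgNr2f2 and 15 sgRosa detections, and the 7 of Zfp993 held 11 and 10. The 1 Mb window of chromosome 4 that starts at base 147000001 held 25 members and the window before it 17. The next fullest were a window of chromosome 13 from base 12000001 with 15 members, near the prolactin family genes Prl2c2 and Prl2c3, and a window of chromosome 3 from base 106000001 with 10, near the chitinase-like genes Chil3, Chil4 and Chia1. In all, 13 windows of 1 Mb held at least 5 members each, together 119 (9.48%), while 666 windows held a single member. Chromosome 4 had 126 members (5.24 per 1000 single-library regions) and chromosome 3 had 119 (4.26), with 2.02 to 4.11 on the others.

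Most genes with a member held a single one. A member overlapped 493 protein-coding genes, of which 451 held 1, 42 held at least 2 and 9 held at least 3. Cntnap2, a neurexin-related adhesion protein of axons and a very long gene, held 5 members, or 2.23 per Mb. Sfi1, a centrosome protein, held 4 in 71.5 kb, and 3 of these had 2 sgNr2f2 libraries. Clstn2, a postsynaptic calsyntenin, held 3. Hjurp, the chaperone of the centromeric histone CENP-A, held 3 within 18.8 kb, all of 2 sgNr2f2 and 1 sgRosa libraries. The 1 Mb windows with Sfi1 and Hjurp also held 25 and 9 regions of 4 or more libraries. How certainly reads were placed there is not known, and nothing is read from these make-ups. Gm40349 and Zfp984 also held 3.

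Synaptic adhesion genes held about as many members as their length would give at the density of all genes. The list of 33 genes found in the table held 13 members (12.6 at the density of all protein-coding genes), in 7 genes. Of these, 5 had 2 sgNr2f2 libraries, 6 had 1 and 2 were sgRosa only, and none was sgNr2f2 only. Besides Cntnap2, the receptor phosphatases Ptprd and Ptprf held 2 each, and Cadm2, Cntn5, Negr1 and Nlgn1 held 1 each. The Cntnap2 members had lowest −log10 p of 3.88, 3.33, 2.96, 4.67 and 3.53. The strongest of them, at chr6:46131247-46131464, had 4.95 in sgRosa 3, 4.67 in sgNr2f2 1 and 5.32 in sgNr2f2 4. The control-only member at chr6:45291808-45292245 had 3.33, 3.81 and 4.52 in sgRosa 2, 3 and 4. The control-only member of Ptprd had 3.27, 4.51 and 4.37 in sgRosa 1, 2 and 3.

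Glutamate receptor genes held 5 members against 5.28 at the density of all genes, among them 1 each at Grin2d, Grm4 and Grm6. At Grin2d, which encodes an NMDA receptor subunit, the values were 2.86 and 5.74 in sgRosa 1 and 2 and 2.96 in sgNr2f2 4. At Grm4, a metabotropic receptor, they were 5.05 in both sgRosa 1 and sgRosa 2 and 4.09 in sgNr2f2 1. Ion channel genes held 5 members against 6.72, with 2 at the M-current channel gene Kcnq5 and 1 each at Kcnh5, Kcnip4 and Kcnq3. Axon guidance genes held 2 against 7.14, at Dcc and Epha5, and cadherin genes held 1 against 3.24, at Cdh10. Whether these counts differ from their density was not tested.

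Among nuclear receptor genes 2 held a member, Rxra and Thrb, against 3.02 at the density of all genes, and both members were sgNr2f2 only. That make-up held 50 of the 635 members around all protein-coding genes, and nothing is read from 2 members. Rxra encodes the common dimer partner of many nuclear receptors, and its member at chr2:27706094-27706392 had 3.70, 3.98 and 3.87 in sgNr2f2 1, 2 and 3. Thrb encodes a thyroid hormone receptor, and its member at chr14:17863741-17864248 had 3.54, 4.96 and 3.34 in the same libraries. No member lay within 50 kb of Nr2f2 or of its relative Nr2f1, the nearest being 1104255 and 500325 bp away.

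Few members lay at markers of cell types, whose genes span little of the genome. Neuron markers held 2 members, at Rbfox3 and Syt1, against 0.753 at the density of all genes. The Rbfox3 member had 4.46 and 6.01 in sgRosa 1 and 4 and 5.02 in sgNr2f2 3. The Syt1 member, at the gene's end, had 2.86 in sgRosa 1 and 4.67 and 2.84 in sgNr2f2 1 and 3. Of the amygdala nucleus genes only Etv1 held a member, with 5.61 and 3.15 in sgRosa 1 and 2 and 3.54 in sgNr2f2 1. The lists of glutamatergic, GABAergic, astrocyte, oligodendrocyte, precursor, microglia and endothelial markers, interneuron genes, immediate early genes, glucocorticoid and stress genes and GABA receptor genes held 0 members, at an expected 0.0575 to 1.65 each. In the cut lists as a whole, some defining neuronal genes carried no interval at their ends. Snap25, Slc17a7, Slc17a6, Neurod6, Gad2 and Slc32a1 had none in any of the 8 libraries, and so did Aqp4, Slc1a3, Mag, Pdgfra, Cspg4, C1qa and Pecam1. These were 1 of 5 neuron, 3 of 4 glutamatergic, 2 of 4 GABAergic and 2 of 4 astrocyte markers. They also were 1 of 3 autosomal oligodendrocyte, 2 of 2 precursor, 1 of 4 microglia and 1 of 3 endothelial markers. The other markers had an interval in at least 1 library, so the labelled cell type is not read from these lists. Intervals lay at 0 to 2 of the 5 neuron markers in sgNr2f2 libraries and at 0 to 3 in sgRosa libraries. No library held intervals at more than 1 gene of the glutamatergic, GABAergic, astrocyte, oligodendrocyte or endothelial lists. Microglia markers, other than C1qa, had intervals too, at 0 to 3 of the 4 genes in sgNr2f2 libraries and at 0 to 2 in sgRosa libraries. The share of all genes with such an interval was not counted, so the marker lists are not compared with it or with each other.

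Olfactory receptor genes held 9 members (7.10 at the density of all genes), vomeronasal receptor genes 6 (4.02) and ribosomal protein genes 1 (0.669). The last lay within 5 kb of Rpl8 but inside Zfp647, and it is counted with the zinc finger genes too. The olfactory and vomeronasal families are made of near copies, with the limit given for the zinc finger genes. Of the 9 olfactory and 6 vomeronasal members, none was of 1 group only, where the share over all members was 13.1%, and nothing is read from so few. Vmn2r115 held 2 of the vomeronasal members, with a lowest −log10 p of 3.57 and 3.90.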

How the data were processed

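ATAC-seq peak lists of 8 libraries were used, 4 sgRosa and 4 sgNr2f2, grouped by the labels. The authors called peaks per library, since each deposited list has its own positions, and the submitters' processing notes name mm10 and MACS2 2.2.9.1, besides DiffBind 3.10.0, HOMER 4.10, fastp 0.23.2, FastQC 0.11.9 and Picard, without a role. Not given in the sources used here are the aligner, the treatment of duplicates and of multiple placements, and the call options. Each of the deposited lists gives, per interval, a score, a fold enrichment ratio, and −log10 p and q values of the summit. They give no counts, so depth per library is unknown and single values carry no counting interval. Deposited −log10 p began at 2.00, and intervals were at least 150 bp wide.

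Lines with the same interval were collapsed to the highest −log10 p (3499 lines), lists were cut to 53864 intervals of chromosomes 1 to 19 and X, with ties in a seeded random order, and merged at 1 bp. Values per member are the deposited −log10 p, which depend on depth and are not scaled between libraries. The background was recovered by finding the whole fragment number that gives both fold and −log10 p within a relative 0.0001, which succeeded for 99.97% of the intervals of sgRosa 2, the lowest share of any library. Moved lists are a description and carry no p. Group comparisons used exact permutation tests over 70 assignments of the libraries. Genes and promoter sequences came from RefSeq tables of GRCm38.p6, matched by position (20661 protein-coding genes). The tools were scipy 1.17.1, numpy 2.4.6, pandas 2.3.3 and matplotlib 3.10.9 under Python 3.11.15, and the merge was tested on simulated lists. Nothing in the labels says more of how libraries relate, so p-values measure the spread between these libraries.

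Members named singly were the 6 with the highest weakest −log10 p for each make-up of 1 group and the 3 highest for each mixed make-up, up to 10 per group at gene ends in the same order, the genes with the most members, and up to 3 genes per list. Some genes of the lists are not reported here. The rule, the members and the 23 gene lists were chosen with earlier results of these data known. Alternatives were the lists cut at 26932 intervals or left whole, order by fold enrichment, a 75 bp overlap, a 2 kb gene end window, members near regions of 4 or more libraries left out, each library left out, the replicate block, and, chosen after seeing the data, other orders of ties and start sites in place of gene ends.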

Additional observations from a re-analysis of the deposited data

How the results depend on the processing

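Lists cut at 26932 intervals gave 341 members, 29 of sgNr2f2 only and 25 of sgRosa only (15.8% of 1 group), a difference of 1.25 members per library, 9.15% weaker intervals below the cut, a background r of 0.693 and a summit span of 127 bp. Full lists gave 2928 members (1120 of the 1255 among them), 218 and 193 of 1 group, a difference of 23.5 per library, 7.14% at gene ends, a gene-end difference of -1.69 (exact permutation p = 0.114), and r of 0.883 with list length and -0.358 with background. Order by fold gave 2.83% below the cut and a list-length r of -0.712. A 75 bp overlap gave 761 members, 49 and 45 of 1 group, 40.2% inside genes, a gene-end difference of -3.52 (exact permutation p = 0.114), 2.76% below the cut, a background r of 0.681 and a span of 110 bp. A 2 kb window gave 13.3% at gene ends and a difference of -2.65 (exact permutation p = 0.171), and start sites alone gave 8.05%. Without members near regions of 4 or more libraries, 1.57% lay below the cut and 18 at zinc finger genes. With another random tie order the difference per library was 1.5, and with ties left out 0.25; these shared 1225 and 1100 members with the lists used.

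Leaving out 1 library gave 804 to 951 members, 20 to 98 of sgNr2f2 only, 19 to 96 of sgRosa only, differences per library of -42.2 to 17.9, gene-end differences of -4.10 to -1.75, r of 0.515 to 0.942 with background and -0.854 to -0.470 with list length, 2.00 to 3.17% below the cut and spans of 157 to 165.5 bp. Same-numbered libraries correlated at 0.124, 0.0115, 0.0667 and -0.193 over 223 shared regions. The highest correlation of sgRosa 1 to 4 with an sgNr2f2 library of another number was 0.105, 0.172, 0.0266 and 0.237. These values do not settle whether equal numbers mark a shared batch, and the main tests used no block. With the replicate block the gene-end difference was -3.11 with an exact sign-flip permutation p of 0.125, the smallest that 4 pairs allow. In every setting run the gene-end difference was below 0. Depth is unknown, so a missing interval is not absence of accessibility.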
